A study of Mus musculus with 10 samples.

Results

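C-type lectins, Siglecs and mannose receptors are proteins that bind sugars, lipids or other ligands at the cell surface, and many of them tell myeloid cells (macrophages, dendritic cells and granulocytes) whether a particle is a microbe, a dying cell or self. They were followed here as 46 genes, out of 25233 entries of the deposited table that carry a gene symbol, in hepatic stellate cells (HSCs), the vitamin A-storing cells of the liver that lay down scar tissue once activated. The 46 were chosen by symbol: every gene named *Clec* with a number, *Siglec*, *Cd209*, *Mrc1*, *Mrc2* or *Cd33*, which gave 50 entries, without *Clec4f*, *Clec1b*, *Clec3b* and *Clec4g*. The rule is one of symbols and uses no measured value, though it was set with earlier results of these data known. Bulk RNA sequencing compared 5 libraries of hypertrophied HSCs (hypHSCs) with 5 libraries of quiescent HSCs (qHSCs), all from the livers of C57BL/6J mice that the methods describe as male. The mice that gave hypHSCs had received the CDAHFD, a high-fat diet without choline that brings on steatohepatitis and fibrosis, for 13 weeks (hypHSC 1 and 2, mice aged 19 weeks) or 12 weeks (hypHSC 3, 4 and 5, mice aged 18 weeks). Standard diet was given to the mice behind the qHSCs, which were 36 weeks old for qHSC 1, 2 and 5 and 34 weeks old for qHSC 3 and 4. Both cell types floated on a density gradient and were then sorted by their own fluorescence, green for hypHSCs and blue for qHSCs, after a stronger digestion of the CDAHFD livers. The paper added antibiotics to the buffers for CDAHFD livers only, because bacteria were found in those preparations. Diet, age, digestion, antibiotics and sorting gate therefore changed together and cannot be told apart.

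The receptors form a few working groups. *Clec4n* (Dectin-2), *Clec4e* (Mincle) and *Clec4d* (MCL) carry no signalling tail of their own and pair with the adaptor FcRγ, *Clec5a* and *Siglech* pair with DAP12, and *Clec7a* (Dectin-1) holds its own activating motif, and all of these feed the kinase Syk. *Clec4a2*, *Clec12a* and most Siglecs carry inhibitory tails that recruit phosphatases such as SHP-1. *Mrc1* and the *Cd209* proteins mainly capture and take up ligands, the *Clec2* proteins are ligands of NK cell receptors, and *Clec14a* and *Clec11a* encode an endothelial surface protein and a secreted growth factor. In healthy liver the phagocytic receptors are mainly known from Kupffer cells, the resident macrophages, and from dendritic cells.

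Whether the libraries carry the labelled cell type was checked first, on marker genes. All 9 HSC markers (such as *Lrat* and *Reln*) were lower in hypHSCs, and their summed level was 22479 to 49207 normalized counts in the 5 hypHSC libraries against 844636 to 1217706 in qHSCs. All 12 macrophage markers (such as *Cd68* and *Lyz2*) were higher in hypHSCs, though the groups overlapped for *Adgre1*, *Csf1r*, *C1qa* and *C1qb*. The 12 markers summed to 1078083 to 1467714 normalized counts in hypHSCs. In qHSCs the same sum was 51481 in qHSC 1, 6342 in qHSC 2, 11688 in qHSC 3, 116284 in qHSC 4 and 9872 in qHSC 5. The libraries labelled hypHSC thus went against the marker profile of their label, and the name hypHSC is used below only as the label of these libraries. Mitochondrial entries took 2.21% to 12.8% of the reads in hypHSCs, highest in hypHSC 1, and 1.25% to 1.61% in qHSCs. In bulk samples more cells of a type and more RNA per cell cannot be told apart. Each hypHSC library held 30534719 to 43283589 reads on genes with a symbol and each qHSC library 35640104 to 47317028. The floor of detection was set at 3 reads, which equalled 2.25 to 4.54 normalized counts and covers counting error only. A normalized count is a read count divided by the size factor of its library.

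A stretch of chromosome 6 holds 9 lectin genes that were all called higher in hypHSCs, as reported below, among them the member with the largest difference. Within chr6:122898807-123266830 (GRCm39) lie, in this order, *Clec4a1*, *Clec4a3*, *Clec4a4*, *Clec4b1*, *Clec4a2*, *Clec4b2*, *Clec4n*, *Clec4d* and *Clec4e*, 9 neighbours within 368 kb. Their coding sequences were 57.0% to 85.7% identical in pairs, with *Clec4a2* and *Clec4a4* closest (85.7%), *Clec4a2* and *Clec4b1* next (83.3%), and *Clec4d* at 57.0% to 58.3% identity to each of the other 8. For 5 of them, for *Clec4d*, and for *Clec7a* and *Clec14a* as the largest changes in either direction outside the cluster, the 120 bases before and 20 bases after the start of the GENCODE canonical transcript are shown, to set side by side what neighbouring members share. Capitals mark GAGGAA or its reverse complement TTCCTC, the core letters of many sites of the myeloid factor PU.1.

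*Clec4a3* (chr6:122929472-122929611, plus strand): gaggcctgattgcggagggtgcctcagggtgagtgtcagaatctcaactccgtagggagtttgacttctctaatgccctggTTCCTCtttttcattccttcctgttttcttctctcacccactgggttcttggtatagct

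*Clec4b1* (chr6:123026801-123026940, plus strand): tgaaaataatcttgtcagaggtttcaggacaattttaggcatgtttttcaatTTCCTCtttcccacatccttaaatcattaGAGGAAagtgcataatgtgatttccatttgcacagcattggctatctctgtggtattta

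*Clec4a2* (chr6:123100153-123100292, plus strand): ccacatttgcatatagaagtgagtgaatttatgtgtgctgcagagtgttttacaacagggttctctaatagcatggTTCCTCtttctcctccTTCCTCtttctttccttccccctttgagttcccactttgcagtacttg

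*Clec4b2* (chr6:123149730-123149869, plus strand): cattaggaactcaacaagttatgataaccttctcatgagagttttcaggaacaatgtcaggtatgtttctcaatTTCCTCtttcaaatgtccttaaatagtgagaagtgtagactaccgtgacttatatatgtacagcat

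*Clec4n* (chr6:123206682-123206821, plus strand): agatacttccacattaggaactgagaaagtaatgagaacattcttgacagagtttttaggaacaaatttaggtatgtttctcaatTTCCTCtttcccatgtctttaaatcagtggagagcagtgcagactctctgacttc

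*Clec4d* (chr6:123238956-123239095, plus strand): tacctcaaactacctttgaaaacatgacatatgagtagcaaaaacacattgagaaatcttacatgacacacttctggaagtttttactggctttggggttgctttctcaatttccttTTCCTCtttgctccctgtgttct

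*Clec7a* (chr6:129449721-129449860, minus strand): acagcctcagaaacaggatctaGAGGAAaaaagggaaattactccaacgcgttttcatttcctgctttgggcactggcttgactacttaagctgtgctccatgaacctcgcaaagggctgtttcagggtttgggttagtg

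*Clec14a* (chr12:58316057-58316196, minus strand): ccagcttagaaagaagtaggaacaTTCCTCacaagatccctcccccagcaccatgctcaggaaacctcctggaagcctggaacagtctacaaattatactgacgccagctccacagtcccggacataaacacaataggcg

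In *Clec4b2* and *Clec4n* the marked letters began 46 and 35 bases before the start, in *Clec4a3* 39, in *Clec4a2* 44 and 28, and in *Clec4b1* 68 and 39. Searched on both strands over 300 bases, from 250 before to 50 after the start, the letters were in 8 of the 9 promoters of the cluster, with none in *Clec4a4*, and in 27.5% of the promoters of 21770 protein-coding genes. They were also in the promoters of both members that were lower in hypHSCs, of 14 of the 19 that were higher, and of 5 of the 10 that were tested and not called, as reported below. The promoters of close paralogues share descent, so that they are not independent examples, and a match is a description of letters and not of binding.

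A second set of sequences shows what the sugar sites of these receptors share. Many C-type lectin domains bind sugar through calcium and a short run of residues, of which glutamate-proline-asparagine is the usual form in receptors of mannose and related sugars and glutamine-proline-aspartate in receptors of galactose. Codons of the first kind, in frame and followed by the tryptophan-asparagine-aspartate codons of the same site, were found in 12 members, codons of the second kind in 2, and a variant with serine in the third place in *Clec4a2* and *Clec4b1*. The 30 bases around them are shown with the 9 bases of the 3 codons in capitals, and the coordinates (GRCm39) are those of the capitals.

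*Mrc1* (chr2:14299638-14299646, plus strand): gcttacggtGAACCAAATaattaccaaaat

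*Clec4n* (chr6:123223416-123223424, plus strand): cacccccatGAACCCAATcttccagaagag

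*Clec4e* (chr6:123260631-123260639, minus strand): gatgctgggGAGCCCAACaatatagttttg

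*Clec4a4* (chr6:123000874-123000882, plus strand): cacaaaggtGAGCCCAACcaagattgggaa

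*Clec4a2* (chr6:123119338-123119346, plus strand): cacaatggtGAGCCCAGCagtggcaatgaa

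*Clec4b1* (chr6:123048368-123048376, plus strand): cacaatggtGAGCCCAGCagtgacaatgaa

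*Clec10a* (chr11:70061260-70061268, plus strand): gccccactgCAGCCAGATaactggttcgga

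Of the 12 genes with codons of the mannose kind, *Clec4a4*, *Clec4b2*, *Clec4e*, *Clec4n* and *Mrc1* were higher in hypHSCs, *Cd209a* and *Mrc2* were tested and not called, and *Cd209b*, *Cd209c*, *Cd209d*, *Cd209f* and *Cd209g* were too low to test. The galactose kind was in *Clec10a*, which was higher, and in *Clec18a*, which had no read. The other 11 members called higher, among them *Clec4d* and *Clec7a*, held none of these codons in this arrangement.

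Lectin genes as a whole took 2634 to 3064 of every 1000000 reads with a symbol in hypHSCs and 420.1 to 719 in qHSCs. Of the 46 genes, 5 had no read in any library (*Clec2l*, *Clec2m*, *Siglecl1*, *Clec3a* and *Clec18a*), 5 stayed under a mean of 10 normalized counts in both groups (*Siglec15*, *Clec2e*, *Cd209b*, *Cd209c* and *Cd209e*), and 36 reached that mean in at least 1 group. Testing required 10 or more normalized counts in 5 or more libraries, which 31 members met and 15 did not. Log2(normalized count + 1) was compared with limma over the 14630 genes that passed it, and a gene was called where the log2 fold change was 1 or more in size with an adjusted p not above 0.05. Of the 31 tested members 19 were higher in hypHSCs, where 17.8% of all tested genes were, 2 were lower, where 21.7% were, and 10 were not called. The groups did not overlap for 18 of the 31, against 39.5% of all tested genes, and for such a gene the exact permutation test (two-sided) gives p = 0.00794, its smallest value with 5 against 5 libraries. The median log2 fold change was 3.99 over the 31 and -0.20 over all tested genes, and 3.74 over the 31 with *Clec4b2*, whose qHSC libraries held at most 2 reads each, at its lower bound. *Clec4b2* was also the single tested member with no library of 10 or more normalized counts in the other group. The filter asks for 5 libraries of either group, so that members high in all 5 hypHSC libraries passed it whatever their qHSC values. *Siglecf*, with 0 to 13.7 normalized counts in qHSCs, is an example. With qHSC 1 and qHSC 4 left out, because they held the most macrophage marker RNA of the qHSCs, 20 members were higher and 2 lower. With the 3 hypHSC libraries of 12 weeks alone, 16 were higher and 4 lower. Scaled on the reference genes *Hprt*, *Pgk1* and *Actb*, which moved the median of all genes to -1.13, 17 were higher and 5 lower. The share of all calls that were higher was 45.03% as deposited, 32.2% with libraries scaled to the same total and 17.3% on the reference genes. The labels do not say which preparations came from separate mice, so that the p-values measure the spread between libraries, which may be technical in part.

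**Figure D1:**
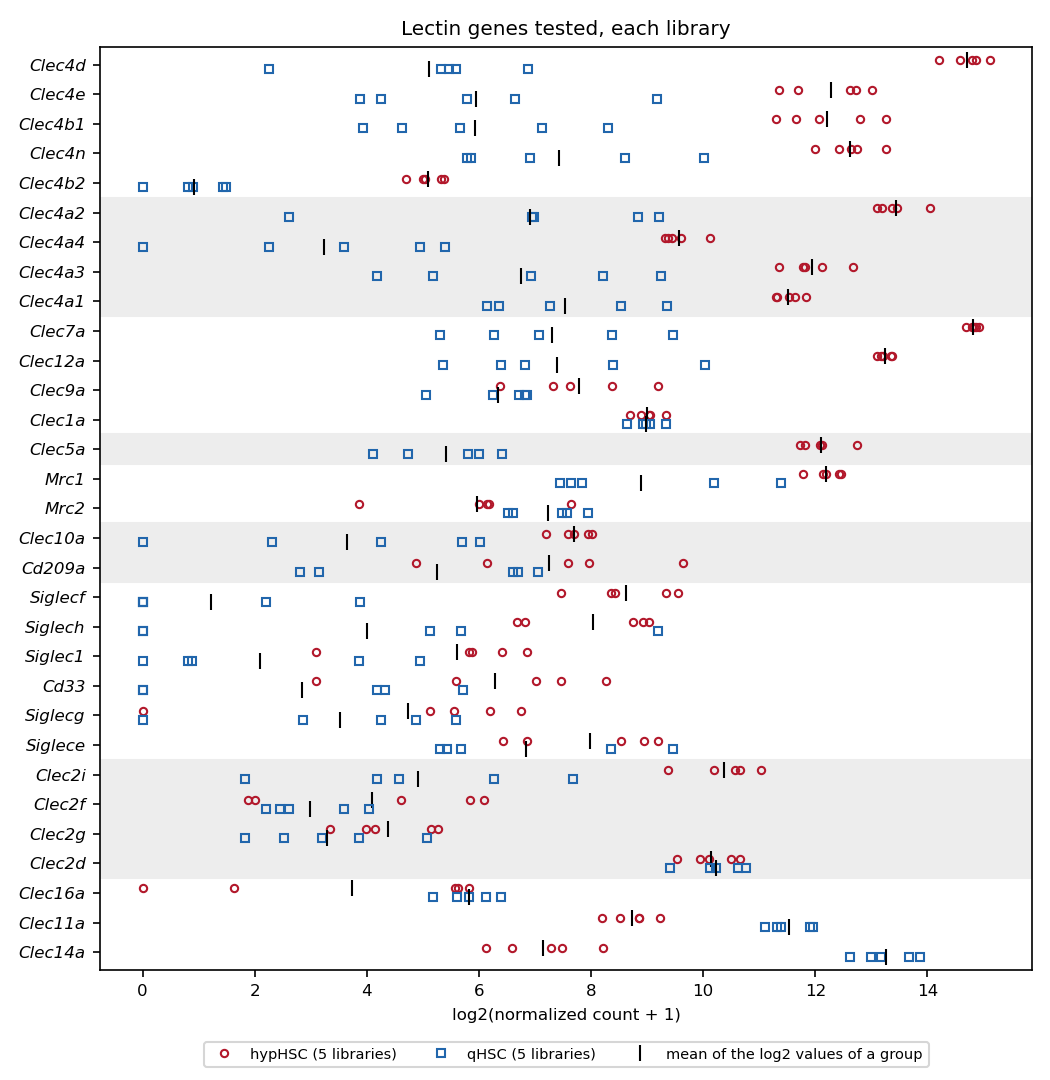
Level of the 31 tested lectin genes in each library. The horizontal axis is log2(normalized count + 1), circles are the 5 hypHSC libraries, squares the 5 qHSC libraries, vertical ticks the group means, and grey and white bands separate the working groups. Circles lie to the right of squares without overlap for 16 genes, to the left for *Clec11a* and *Clec14a*, and on the squares for *Clec1a* and *Clec2d*.

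The FcRγ-coupled receptors of the *Clec4* cluster were all higher in hypHSCs, 5 of 5. *Clec4d* (MCL), which binds mycobacterial cord factor and pairs with Mincle, had 29797, 28331, 18924, 24383 and 35394 normalized counts in hypHSC 1 to 5 and 38.9, 43.5, 47.2, 116 and 3.75 in qHSC 1 to 5. The lowest hypHSC library stood far above the highest qHSC library, and the means were 548-fold apart (log2 fold change 9.61 ± 0.67 (SE), adjusted p = 1.05e-06), the largest difference among the members. *Clec4e* (Mincle), a sensor of dying cells and of cord factor, had 2617, 8257, 3303, 6752 and 6262 in hypHSCs and 18.1, 13.6, 576, 53.9 and 98.9 in qHSCs (log2 fold change 6.33 ± 0.86 (SE), adjusted p = 0.000124). The groups did not overlap, but qHSC 3 stood above the other qHSC libraries, and it did so for no other member called higher. *Clec4n* (Dectin-2), the receptor of fungal mannans, had 5494, 6371, 4075, 6858 and 9849 in hypHSCs and 387, 57.1, 119, 1038 and 54.0 in qHSCs (log2 fold change 5.18 ± 0.73 (SE), adjusted p = 0.000157). *Clec4b1*, one of the dendritic cell activating receptors, had 4282, 3208, 2505, 7159 and 9819 and 138, 23.9, 14.2, 315 and 49.5 (log2 fold change 6.29 ± 0.76 (SE), adjusted p = 5.4e-05). In both genes qHSC 4 was highest and qHSC 1 next among the qHSCs, the order of the macrophage marker sums, whose part in these levels was not tested. *Clec4b2* was scarce, with 24.9 to 40.4 normalized counts in hypHSCs and 0 to 2 reads in qHSCs, and was at least 13.4-fold higher in hypHSCs, taking 3 reads per library as the floor. Of *Clec4b1*, 4.58% of the stretches of 59 bases, the read length, also occur in *Clec4a2*, so that a small share of its reads is of uncertain origin.

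The *Clec4a* paralogues, which lie in the same cluster, were higher as well, 4 of 4. *Clec4a2*, an inhibitory receptor of dendritic cells and macrophages, had 10606, 9387, 8839.8, 11302 and 16852 normalized counts in hypHSCs and 458, 5.11, 125, 589 and 122 in qHSCs (log2 fold change 6.52 ± 1.01 (SE), adjusted p = 0.000303). Its 2 lowest values among all libraries were in qHSC 2 and qHSC 5, and qHSC 4 again was the highest of its group. *Clec4a4*, the closest relative in sequence, also with an inhibitory tail, had 695, 639, 659, 775 and 1112 in hypHSCs and 29.9, 0, 11.02, 41.1 and 3.75 in qHSCs (log2 fold change 6.33 ± 0.88 (SE), adjusted p = 0.000144). It shares 12.2% of its 59-base stretches with *Clec4a2*, where reads cannot be assigned. *Clec4a3* (2604 to 6511 in hypHSCs, 17.0 to 609 in qHSCs) and *Clec4a1* (2522 to 3644 and 69.7 to 656) differed by 5.20 ± 0.82 and 3.99 ± 0.55 on the log2 scale (adjusted p = 0.000367 and 0.000138). All 9 genes of the cluster were therefore higher, and the groups overlapped for none of them.

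**Figure D2:**
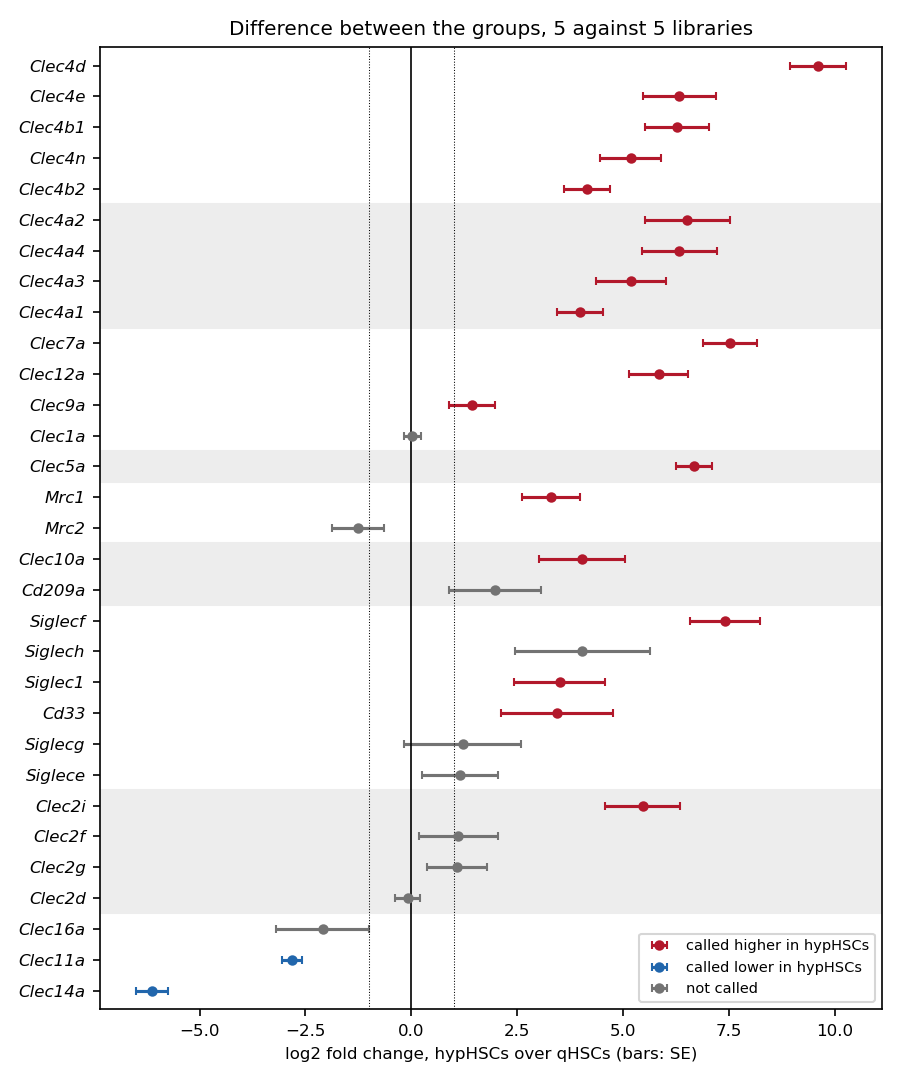
Log2 fold change of the 31 tested lectin genes, hypHSCs over qHSCs. Points are limma estimates on log2(normalized count + 1), bars their SE, dotted lines mark a fold change of 1 on the log2 scale, and colour gives the call. The 9 genes of the *Clec4* cluster lie between 3.99 and 9.61, and *Clec14a* and *Clec11a* are the 2 genes called lower.

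A second stretch of chromosome 6, chr6:128639347-129449748, holds 12 members, of which 8 could be tested, and it did not move as a block: 4 were higher and 4 were not called. *Clec7a* (Dectin-1; chr6:129438554-129449748), which binds fungal β-glucan, had 29820.3, 26326, 29032, 31167 and 28575 normalized counts in hypHSCs and 330.4, 38.3, 134, 708 and 76.4 in qHSCs (log2 fold change 7.52 ± 0.64 (SE), adjusted p = 4.46e-06). Its hypHSC libraries were much alike, with an SD of 1781.5 around a mean of 28984. *Clec12a*, an inhibitory receptor that responds to uric acid crystals, had 10618, 9255, 8818, 10411 and 9494 in hypHSCs and 336, 40.05, 112, 1047 and 83.2 in qHSCs (log2 fold change 5.84 ± 0.70 (SE), adjusted p = 5.4e-05). *Clec1a*, a receptor of fungal melanin also known from endothelium, lies between them and had 474, 415, 527, 526 and 647 in hypHSCs and 483, 643, 533, 505 and 397 in qHSCs. Its difference was 0.02 ± 0.20 on the log2 scale (95% interval -0.42 to 0.46, adjusted p = 0.95), and the groups overlapped. By GENCODE 36.8% of its exon bases lie within *Clec1b* and *Clec9a*, so that a part of its reads may be theirs. In the deposited table its position does not overlap that of *Clec9a*. *Clec9a*, the dead-cell receptor of cross-presenting dendritic cells, had 82.3 to 588 in hypHSCs and 32.4 to 115 in qHSCs (log2 fold change 1.44 ± 0.55 (SE), adjusted p = 0.0482). The groups overlapped, and of the 10 fits with 1 library left out the call held in 1, without hypHSC 3 (1.08 to 1.79 over the 10 fits). By GENCODE its exons lie to 82.7% within *Clec1a* and *Clec1b*, and the libraries were counted without strand. In the deposited table *Clec9a* ends at 129401727, just before *Clec1a* begins at 129401735. How far its count holds reads of these genes is therefore not known, and *Clec1b* was higher in hypHSCs (3.68 ± 1.06). *Clec12b*, an inhibitory relative, reached 86.2 normalized counts in hypHSC 5 and at most 8.09 elsewhere, and was not tested.

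Farther away on the same chromosome, *Clec5a* (chr6:40551832-40562756), a DAP12-coupled receptor that amplifies inflammatory responses and is known from dengue infection, had 4336, 4436, 3410.3, 3589 and 6839 normalized counts in hypHSCs and 84.2, 16.2, 63.0, 25.7 and 54.7 in qHSCs (log2 fold change 6.69 ± 0.42 (SE), adjusted p = 5.42e-07). Here qHSC 4, with the highest macrophage marker sum of its group, had the second-lowest value of the group. *Clec4d*, *Clec4e* and *Clec5a* are also genes of neutrophils. Neutrophil markers summed to 2039 to 8404 normalized counts in hypHSCs and 5.25 to 399.6 in qHSCs, and all 5 of 8 that could be tested were higher. *Ly6g*, too low to test, had 0 to 13.6 normalized counts in hypHSCs, with 0 in 4 of the 5 libraries, and 0 to 5.13 in qHSCs. The part of neutrophils was not tested.

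The mannose receptors differed from each other. *Mrc1* (CD206; chr2:14234225-14336838), a scavenger of mannosylated glycoproteins on Kupffer cells and sinusoidal endothelium, had 3535, 4688, 4481, 5480.5 and 5655 normalized counts in hypHSCs and 1164, 228, 172, 2667 and 198 in qHSCs (log2 fold change 3.30 ± 0.69 (SE), adjusted p = 0.00228). Among the qHSCs, libraries 1 and 4 stood apart at 1164 and 2667 normalized counts, while the other 3 had 172 to 228, and the groups did not overlap. *Mrc2* (Endo180; chr11:105183468-105241971), a collagen uptake receptor of fibroblasts, was not called, with 198, 63.1, 69.8, 71.3 and 13.6 in hypHSCs and 178, 190.0, 245, 90.7 and 96.7 in qHSCs (log2 fold change -1.26 ± 0.62, 95% interval -2.62 to 0.10, adjusted p = 0.115). It was called lower with hypHSC 1 left out (-1.68), the library with its highest hypHSC value, with the hypHSCs of 12 weeks alone (-1.83) and scaled on the reference genes (-2.19).

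Among the galactose and mannose receptors of dendritic cells, 1 of the 2 that could be tested was higher. *Clec10a*, which binds galactose and its N-acetylated form, had 245, 257, 146, 207 and 191 normalized counts in hypHSCs and 50.7, 0, 3.94, 64.2 and 18.0 in qHSCs (log2 fold change 4.03 ± 1.01 (SE), adjusted p = 0.00662), and 6.68% of its 59-base stretches occur in its neighbour *Mgl2*. *Cd209a*, the closest mouse relative of human DC-SIGN, had 193, 69.4, 28.3, 249 and 802 in hypHSCs and 102, 5.96, 7.87, 132 and 96.7 in qHSCs, with overlap (log2 fold change 1.98 ± 1.09, 95% interval -0.40 to 4.37, adjusted p = 0.154). The 7 *Cd209* genes lie within chr8:3793395-4187709, and the other 6 were not tested. *Cd209d* reached 87.7 normalized counts in hypHSC 5, and *Cd209f* and *Cd209g* reached 60.8 and 47.9 in qHSC 4, while *Cd209b*, known from marginal zone macrophages, had 32.5 in qHSC 4 and at most 2.7 elsewhere. *Cd209f* and *Cd209g* share 16.3% and 15.4% of their 59-base stretches with each other.

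Siglecs bind sialic acid, the terminal sugar of many glycoproteins, and they were low in these libraries: 6 of 8 could be tested, 3 were higher and 3 were not called. *Siglecf* (chr7:43000763-43008955), known from eosinophils and alveolar macrophages, had 342, 745, 649, 328 and 175 normalized counts in hypHSCs and 3.62, 0, 0, 13.7 and 0 in qHSCs (log2 fold change 7.41 ± 0.82 (SE), adjusted p = 2.94e-05). It was present in every hypHSC library and in qHSC 1 and 4 only among the qHSCs. Of the eosinophil markers, *Epx*, *Prg2* and *Il5ra* were at 0 in all 5 hypHSC libraries, and *Ccr3* had 55.9 to 183 normalized counts there. *Siglec1* (CD169), a macrophage adhesion receptor, had 57.9, 83.9, 115, 55.6 and 7.56 in hypHSCs and 13.6, 0.85, 0, 29.9 and 0.75 in qHSCs (log2 fold change 3.51 ± 1.08 (SE), adjusted p = 0.019), and *Cd33* had 129, 305, 175, 47.2 and 7.56 and 19.0, 17.0, 0, 51.3 and 0 (log2 fold change 3.45 ± 1.32 (SE), adjusted p = 0.0497). The groups overlapped for both, hypHSC 5 had 7.56 normalized counts of each, and for *Cd33* hypHSC 4 was also below qHSC 4. Of the 10 fits with 1 library left out the call for *Cd33* held in 2, without hypHSC 5 and without qHSC 4 (2.73 to 4.24 over the 10 fits). *Siglece*, an inhibitory Siglec of myeloid cells, was not called, with 490.5, 585, 372, 114 and 84.7 in hypHSCs and 327, 50.3, 38.6, 709 and 42.0 in qHSCs (log2 fold change 1.14 ± 0.90, 95% interval -0.83 to 3.11, adjusted p = 0.317). Its qHSC values were highest in qHSC 4 and qHSC 1, it was called higher without both (2.52), and by GENCODE 39.3% of its exon bases lie in *Ceacam18*. *Siglech*, a DAP12-coupled marker of plasmacytoid dendritic cells, had 484, 521, 112, 102 and 431 in hypHSCs and 586, 0, 33.9, 50.5 and 0 in qHSCs, where qHSC 1 alone was higher than any hypHSC library. It missed the threshold (log2 fold change 4.04 ± 1.59, 95% interval 0.55 to 7.54, adjusted p = 0.0553) and was called without qHSC 1 (5.34) and with a pseudocount of 5 (3.09). The other plasmacytoid markers summed to 266 to 617 normalized counts in hypHSCs and 120 to 377 in qHSCs, highest among qHSCs in qHSC 1. They did not move together: of the 3 that could be tested 1 was higher, 1 lower and 1 not called. *Cox6a2* had 98.3 to 413 in hypHSCs and 0 to 44.4 in qHSCs, and *Pacsin1* had 0 to 20.2 and 44.9 to 110. *Siglecg*, a B cell Siglec, had 0 to 107 and 0 to 47.1 normalized counts and was not called (1.21 ± 1.38, 95% interval -1.82 to 4.25, adjusted p = 0.495). In hypHSC 5, which was lowest of its group for *Siglecf*, *Siglec1*, *Cd33*, *Siglece* and *Siglecg*, 7 of the 12 macrophage markers were also lowest of the group, 2 were highest and 3 lay between. Furthest from the other 4 libraries were *Csf1r* (1833 normalized counts against 5275 to 24497), *Adgre1* (1113 against 5265 to 8099.7) and *C1qa* (2231 against 17653 to 51667.5), chosen after their values were seen, while *Ptprc* (30003) and *C1qc* (11707) were highest in hypHSC 5. The part of these markers in the Siglec levels was not tested.

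The *Clec2* genes encode ligands of the NKR-P1 receptors of NK cells, and 4 of 8 could be tested. *Clec2i* was higher, with 662, 1176, 1517, 1622 and 2101 normalized counts in hypHSCs and 76.0, 2.56, 22.8, 203 and 17.2 in qHSCs (log2 fold change 5.46 ± 0.89 (SE), adjusted p = 0.00045). *Clec2d*, whose product protects cells from NK cells, had the smallest difference after *Clec1a*, with 738, 981, 1094, 1617 and 1444 in hypHSCs and 1113, 677, 1571, 1748 and 1197 in qHSCs (log2 fold change -0.08 ± 0.29, 95% interval -0.73 to 0.56, adjusted p = 0.83). That interval excludes a change of 1 on the log2 scale in either direction, but the sign changed when single libraries were left out, and scaled on the reference genes *Clec2d* was called lower (-1.02). *Clec2f* and *Clec2g* had at most 67.3 and 37.8 normalized counts in any library and were not called (1.11 ± 0.94 and 1.09 ± 0.71, adjusted p = 0.353 and 0.226). *Clec2h* missed the filter by 1 library, with 8.09, 37.3, 37.4, 34.6 and 54.5 normalized counts in hypHSCs and 0 to 5.43 in qHSCs.

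Both genes called lower encode proteins outside pathogen recognition. *Clec14a* (chr12:58311506-58316044), a surface protein of endothelial cells in growing vessels, had 295, 178, 156, 69.2 and 95.3 normalized counts in hypHSCs and 13034, 14930.3, 6313, 9277 and 8164 in qHSCs. The group means were 65.2-fold apart (log2 fold change -6.13 ± 0.38 (SE), adjusted p = 4.91e-07). Of the sinusoidal endothelial markers 0 were called lower by limma: they summed to 859.9 to 1969 normalized counts in hypHSCs and 153 to 1230.5 in qHSCs, with 2 of 6 tested higher, and *Cdh5* and *Pecam1* were at 5.25 to 106 and 2.56 to 199 in qHSCs. *Clec11a* (chr7:43953194-43956383), a secreted factor that promotes bone formation, had 459.5, 596, 364, 459.5 and 293 in hypHSCs and 2564, 2694, 3988, 2209 and 3817 in qHSCs, 7.03-fold apart (log2 fold change -2.81 ± 0.24 (SE), adjusted p = 4.63e-06). For both genes all hypHSC libraries were below all qHSC libraries, in the direction of the HSC markers. *Clec16a*, which acts in mitophagy, had 55.2, 46.6, 48.2, 2.1 and 0 and 48.0, 55.4, 82.7, 68.5 and 35.2 and was not called (log2 fold change -2.09 ± 1.11, 95% interval -4.52 to 0.33, adjusted p = 0.14), with the first 3 hypHSC libraries inside the qHSC range and the other 2 at or under 2.10. It was called lower with the hypHSCs of 12 weeks alone (-3.40) and scaled on the reference genes (-3.03).

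Levels of different genes were compared as FPKM, reads per 1000 bases of exon and per 1000000 reads with a symbol, computed from the recovered reads (mean ± SD, n = 5 libraries). In hypHSCs *Clec4d* led with 402 ± 63.9 FPKM, followed by *Clec7a* with 263 ± 30.1, *Clec4b1* with 158 ± 73.6, *Clec4n* with 107 ± 24.3 and *Clec4a2* with 91.4 ± 16.6. *Clec4d* lay above *Clec7a* in every hypHSC library, and from *Clec7a* on neighbours in this order overlapped in their ranges over libraries. In qHSCs *Clec14a* led with 69.0 ± 23.7 FPKM, followed by *Clec2d* with 31.9 ± 11.3 and *Clec11a* with 30.8 ± 8.27, the next being *Clec4n* with 7.19 ± 9.06, and *Clec2d*, *Clec11a* and *Clec4n* overlapped in their ranges. The FcRγ-coupled receptors of the *Clec4* cluster made up 46.4% to 60.6% of the summed FPKM of the 46 genes in hypHSCs and 2.03% to 16.4% in qHSCs, and *Clec14a*, *Clec11a* and *Clec16a* together 0.167% to 0.481% and 37.2% to 82.7%. Among qHSCs the receptor share was highest in qHSC 4 and next in qHSC 1.

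**Figure D3:**
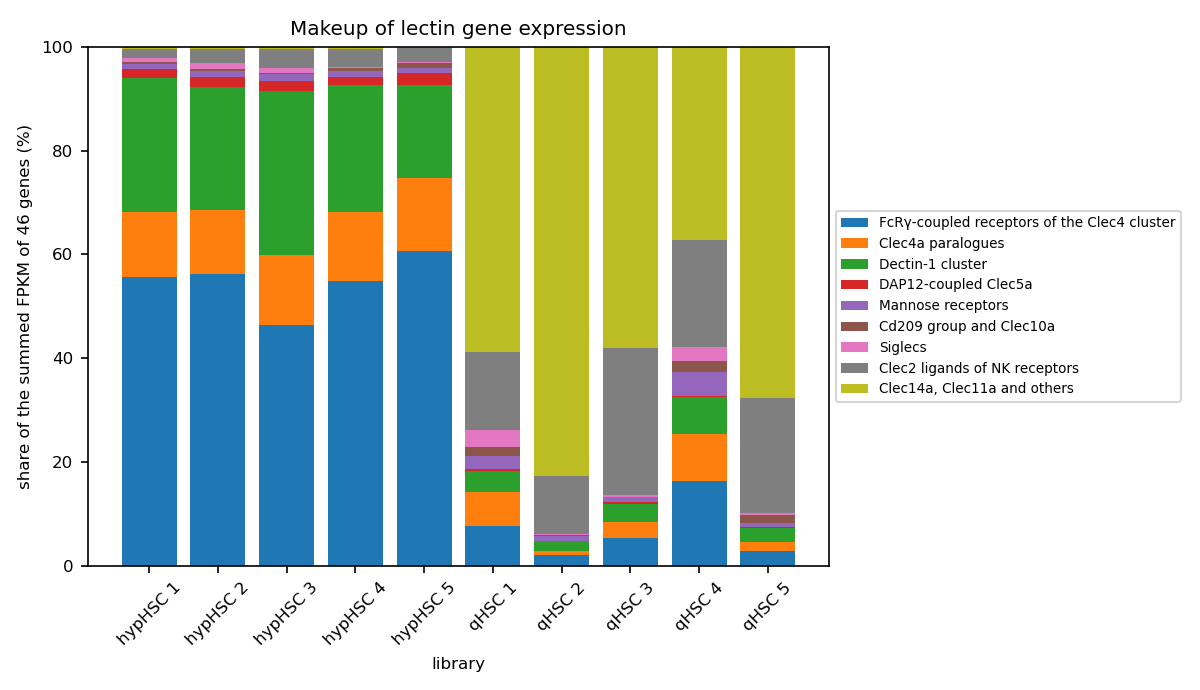
Share of each working group in the summed FPKM of the 46 lectin genes, by library. Bars are libraries, the vertical axis is percent and each bar sums to 100. The 5 hypHSC bars are filled by the *Clec4* cluster and the Dectin-1 cluster, the qHSC bars by *Clec14a*, *Clec11a* and others (37.2% to 82.7%) and the *Clec2* ligands (11.2% to 28.2%).

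Since qHSC 1 and qHSC 4 held macrophage marker RNA, the level of each gene was also set against the 12 summed macrophage markers of the same library, a ratio within a library that does not depend on its size factor. This was done after the values had been seen, and no test was run on it. *Lyz2* alone held 740305 to 940344 normalized counts of this sum in hypHSCs, where the whole sum was 1078083 to 1467714. In qHSC 1 it held 13946 of 51481 and in qHSC 4 30968 of 116284. The order of the groups per macrophage marker count may therefore depend on *Lyz2* for some genes. A sum without it was not used, so that this was not tested. Of the 19 genes called higher, 5 were above both of these qHSC libraries in every hypHSC library per macrophage marker count (*Clec4d*, *Clec4e*, *Clec5a*, *Clec7a* and *Siglecf*), 6 were below both (*Clec10a*, *Mrc1*, *Siglec1*, *Clec4a1*, *Clec9a* and *Cd33*), and 8 overlapped. *Clec4d* had 15.1 to 32.8 normalized counts per 1000 macrophage marker counts in hypHSCs, 0.756 in qHSC 1 and 1.001 in qHSC 4. *Clec7a* had 17.9 to 26.5, 6.42 and 6.09. At the other end *Mrc1* had 2.57 to 5.25 in hypHSCs, 22.6 in qHSC 1 and 22.9 in qHSC 4. On this sum *Clec12a* was alike in all of these libraries, with 6.31 to 8.81, 6.52 and 9.01. Against all 5 qHSC libraries, *Clec4d*, *Clec7a* and *Siglecf* were above in every hypHSC library and *Mrc1*, *Clec4a1* and *Clec9a* below. The *Siglecf* ratios of qHSC 1 and 4 rest on 4 and 16 reads, those of *Siglec1* on 15 and 35 and those of *Cd33* on 21 and 60. *Clec9a* did not follow the marker sum among the qHSCs: it had 115 normalized counts in qHSC 4 and 112 in qHSC 5. The marker sums of these libraries were 116284 and 9872. Resident Kupffer cell markers summed to 14621 to 26579 normalized counts in hypHSCs and to 10923.5 and 28087 in qHSC 1 and 4. Of these 6 markers *Vsig4*, *Cd5l* and *Folr2* were called higher in hypHSCs and *Marco*, *Timd4* and *Cd163* were not called. *Cd5l* had 4984 to 9333 in hypHSCs against 3213 and 8342 in qHSC 1 and 4, whereas *Timd4* had 2.10 to 39.1 against 701 and 1720 and *Cd163* had 9.43 to 54.5 against 706 and 1992. Which macrophages the RNA came from was not tested.

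**Figure D4:**
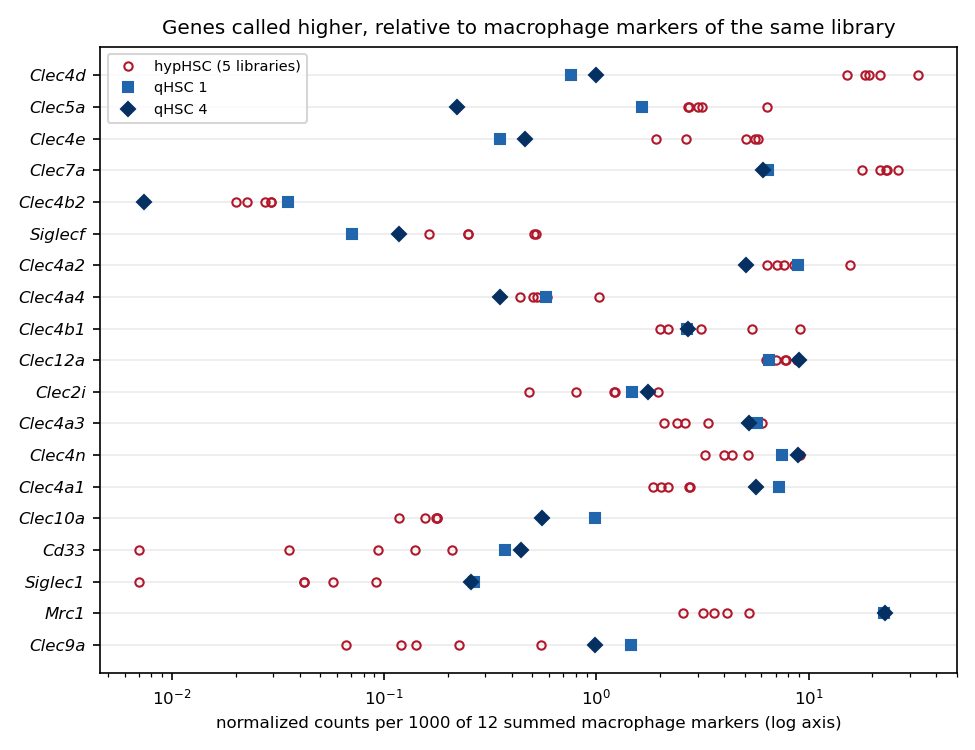
The 19 genes called higher, as normalized counts per 1000 counts of 12 summed macrophage markers of the same library (log axis). Circles are hypHSC libraries, the square is qHSC 1 and the diamond qHSC 4, and genes are ordered by the hypHSC median over qHSC 4. *Clec4d* (15.1 to 32.8 in hypHSCs against 1.001 in qHSC 4) is at the top and *Mrc1* (2.57 to 5.25 against 22.9) near the bottom.

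The partners through which these receptors signal were described from a list of 18 genes, of which 15 (83.3%) were higher in hypHSCs, where 17.8% of all tested genes were, 1 (5.56%) was lower, where 21.7% were, and 2 were not called. The median log2 fold change was 4.07, against -0.20 over all tested genes. The adaptor *Fcer1g* (FcRγ) had 80553 ± 16396 in hypHSCs and 3509 ± 4424 in qHSCs (normalized counts, mean ± SD, n = 5; log2 fold change 5.41 ± 0.71). *Tyrobp* (DAP12) had 93195 ± 40286 in hypHSCs and 4013 ± 5017 in qHSCs (5.30 ± 0.76). The kinase *Syk* had 508 ± 259 in hypHSCs and 17.7 ± 23.4 in qHSCs (5.82 ± 0.92), and *Card9*, which carries its signal onward, had 65.2 ± 39.6 in hypHSCs and 2.67 ± 2.88 in qHSCs (4.46 ± 0.73). Its partner *Malt1* was higher (2.69 ± 0.31) and the third member of that complex, *Bcl10*, was not called, with 2491 ± 922 in hypHSCs and 2899 ± 319 in qHSCs (-0.32 ± 0.29, adjusted p = 0.382). On the inhibitory side *Ptpn6* (SHP-1) and *Inpp5d* were higher (4.46 ± 0.65 and 4.13 ± 0.74), *Ptpn11* (SHP-2) was not called (-0.45 ± 0.28, adjusted p = 0.211), and *Socs3*, a brake on cytokine signals, was lower (-2.85 ± 0.40).

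Sialic acid, the ligand of the Siglecs, is made, attached and removed by 24 genes that were listed, of which 17 could be tested, with a median log2 fold change of -0.53. Of the 17, 3 (17.6%) were higher, 5 (29.4%) lower and 9 not called, shares near the 17.8% and 21.7% of all tested genes, so that the counts set the list apart in neither direction. *Cmas*, which activates sialic acid, was higher (1337 ± 698 in hypHSCs and 230.3 ± 44.9 in qHSCs, 2.43 ± 0.30), as were *St8sia4* (5.96 ± 0.75) and *St8sia6* (4.07 ± 0.93), which extend sialic acid chains. The transporter *Slc35a1* (-1.48 ± 0.19), the sialyltransferases *St3gal1* (-1.51 ± 0.52), *St3gal2* (-1.43 ± 0.52) and *St3gal4* (-2.07 ± 0.22) and the sialidase *Neu3* (-4.63 ± 1.22) were lower. *St6gal1*, which makes the linkage that *Siglecg* and *Cd22* prefer, was not called (-0.23 ± 0.30, adjusted p = 0.555), while *Cd22* itself, a Siglec that the symbol rule does not take, was higher (729 ± 459 in hypHSCs and 18.5 ± 21.3 in qHSCs, 6.11 ± 1.05). Among other relatives outside the rule, *Ly75* was higher (2.39 ± 0.70), *Pla2r1*, of the mannose receptor family, was lower (253 ± 166 in hypHSCs and 5997 ± 505 in qHSCs, -5.33 ± 0.89), and *Mag* was not called (0.27 ± 0.90). Of the 4 genes left out, *Clec4f*, the Kupffer cell lectin, was not called (4929.7 ± 1757 in hypHSCs and 5953 ± 8029.5 in qHSCs, 1.15 ± 0.94), *Clec4g* was lower (-2.95 ± 0.45) and *Clec3b* was not tested.

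The 2 durations of the CDAHFD were compared as hypHSC 1 and 2 against hypHSC 3, 4 and 5. Of the 31 tested members 0 were called by limma, by DESeq2 or by edgeR, 2 had an unadjusted limma p under 0.05, and 0.00684% of all tested genes were called, which is 1 gene. The smallest adjusted p among the members was 0.365, for *Clec14a*, and the log2 differences ran from -0.97 (*Clec2i*) to 3.28 (*Clec16a*) with a median of 0.05. Without hypHSC 3, *Clec14a* (1.49 ± 0.42) and *Clec16a* (4.88 ± 0.75) were called higher at 13 weeks. That fit set hypHSC 1 and 2 against hypHSC 4 and 5. Over all tested genes hypHSC 3 differed less from hypHSC 2 of 13 weeks (chi-square 55.8 per gene) than from hypHSC 4 (435) or hypHSC 5 (923). Duration and other differences between these libraries were not told apart. With 2 against 3 libraries an exact permutation test cannot go below 0.1. Across the 19 genes called higher, hypHSC 5 had the highest value of its group for 10 and hypHSC 3 the lowest for 11, whereas in qHSCs qHSC 4 was highest for 16 and qHSC 2 lowest for 11.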

How the data were processed

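RNA of sorted hypHSCs and qHSCs was sequenced in 10 libraries, 5 per group. The authors deposited a normalized signal per gene: reads (paired, 59 bases) were mapped to mm39 (GRCm39) with STAR, counted per gene with featureCounts without strand, and divided by the DESeq2 size factor of the library. Dividing by the smallest step of each column gave whole reads for 100% of values (tolerance 0.1), and these recovered reads served for depth, FPKM, edgeR (4.0.16) and DESeq2 (1.42.0). The main test was limma (3.58.1, intensity trend) in R 4.3.3 on log2(normalized count + 1), for entries that carry a symbol and have 10 or more normalized counts in 5 or more libraries, with Benjamini-Hochberg adjustment over 14630 genes. This scale understates the fold change of low genes. Within a group, pairs of libraries differed by a chi-square of 55.8 to 923 per gene, so no library was a copy.

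Every member with a mean of 10 normalized counts in a group was named, with values of every library for the 20 most abundant in the text or in the plot of levels. The members, the lists of signalling partners, sialic acid genes and cell type markers, and the roles were chosen with earlier results of these data known. HSC markers were *Lrat*, *Des*, *Gfap*, *Reln*, *Ngfr*, *Pdgfrb*, *Hgf*, *Colec11* and *Dcn* (a further one is not reported here), and macrophage markers *Adgre1*, *Cd68*, *Lyz2*, *Csf1r*, *Ptprc*, *Cd14*, *Fcgr1*, *Mertk*, *C1qa*, *C1qb*, *C1qc* and *Aif1*. Positions of genes are those of the deposited table. Promoters and coding sequences were read from the GRCm39 genome with GENCODE transcripts, for 45 of the 46 genes in the case of promoters, and shared stretches from exons of all genes. Alternatives changed the pseudocount, the filter, the scaling (same total, same upper quartile, TMM, reference genes), the tool, the replicate number as a block, the entries without symbol and the libraries. The steps were tested on simulated data.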

Additional observations from a re-analysis of the deposited data

Results flagged for a closer look

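Among the 31 tested genes, each checked in both groups, 2 had a hypHSC library that stood apart from the other 4 by Dixon's criterion at 95%. The criterion is a gap of more than 0.71 of the range of 5 libraries, which chance meets in about 1 of 20 groups. At that rate chance alone would flag about as many. *Siglec1* had 7.56 normalized counts in hypHSC 5, where the next lowest library had 55.6, the gap being taken on log2 values. *Siglecg* had 0 in the same library, where the next lowest had 34.1. Without hypHSC 5 the log2 fold change of *Siglec1* was 4.14 and it was still called, and that of *Siglecg* was 2.39 and it was not called.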

How the results depend on the processing

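Over 14 other settings and 10 fits with 1 library left out, 18 of the 21 calls, those except *Clec9a*, *Cd33* and *Siglec1*, kept their direction and their side of the threshold wherever the gene was tested. The members called higher numbered 17 to 18 with 1 library left out and 16 to 20 under the other settings. The members called lower numbered 2 to 3 with 1 library left out, 4 with the hypHSCs at 12 weeks only and 5 scaled on the reference genes. Members differing between the durations of diet numbered 0 to 2 with 1 library left out. *Siglec1* missed the threshold with edgeR (2.84) and with 12 weeks only (3.16), and *Cd33* and *Clec9a* missed it in 8 of 13 and 6 of 14 of the other settings. *Clec2d* changed sign with 12 weeks only (0.19), without qHSC 1 and 4 (0.062), and in 3 of the fits with 1 library left out, which ran from -0.29 to 0.070. *Clec1a* changed sign with the same total (-0.34), on the reference genes (-0.92), without qHSC 1 and 4 (-0.0058), and in 2 of the fits with 1 library left out, which ran from -0.070 to 0.10. Leaving out qHSC 1 and 4 together was chosen after seeing the data. The cause of these changes was not tested. The sialic acid genes called numbered 8 and, on the reference genes, 12.

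The replicate numbers gave no clear sign of pairing. The deviations of same-numbered libraries correlated at 0.008 to 0.13, within the range of -0.13 to 0.155 between libraries of different numbers. With the replicate number as a block, 19 members were higher and 2 lower as without it, *Cd209a* was called (adjusted p = 0.0169) and *Clec9a* was not (adjusted p = 0.0687). Depth limited the scarce members: at 3 reads per library, the 10 members under a mean of 10 normalized counts in both groups, 5 of them without a read, could not be compared.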
